A study of Homo sapiens with 12 samples.

Results

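Messenger RNA of 29 genes of the p53 pathway was examined in MIB1-iKO cells, to ask whether induced Cas9 cutting or BMP-driven growth arrest was accompanied by changes in p53 targets other than CDKN1A. The members were fixed by name, and each of the 29 symbols was found once among the 58302 genes of the count table. MIB1-iKO cells are clonal NCIH838 cells, a human lung cancer line, that carry a doxycycline (Dox)-inducible Cas9 and a guide against MIB1, the E3 ubiquitin ligase Mind bomb 1. All 12 RNA-seq libraries came from cells kept in 50 nM LDN, an inhibitor of BMP type I receptors, for 3 days, then replated and given 10 ng/mL BMP4 for 24 h together with either LDN (BMP-off) or DMSO (BMP-on). The WT groups received no Dox and the KO groups received 0.5 µg/mL Dox from the start of the 3 days in LDN. RNA was taken only at the end of the 24 h, so earlier times after Cas9 induction were not sampled. The 4 groups of 3 libraries were WT BMP-off, WT BMP-on, KO BMP-off and KO BMP-on. Dox was given to all 6 KO libraries and to none of the WT libraries, and none of the groups carried a guide that cuts elsewhere or nowhere, so Dox itself, Cas9 cutting and loss of MIB1 cannot be told apart. Which clone and which guide were sequenced and whether replicates were separate cultures are not given in the sources used here. P-values therefore measure the spread between these libraries, which may be technical.

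p53 is a transcription factor that is normally kept scarce by MDM2, a ubiquitin ligase whose own gene it activates. DNA breaks, including those left by Cas9, activate the kinases ATM and CHEK2, which stabilize p53, and its targets then serve growth arrest, DNA repair, redox control and apoptosis. CDKN1A, which encodes the CDK inhibitor p21, is the best-known arrest target, but SMAD proteins downstream of BMP receptors can also raise it. Whether other p53 targets move with CDKN1A is the question taken up here.

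Libraries held 19124010 to 29498000 counted reads. MIB1, the targeted gene, lay at 144 to 176 CPM (read counts scaled to library size with TMM factors) in the 6 WT libraries and at 31.0 to 34.4 CPM in the 6 KO libraries. All 8 BMP targets of a check list (ID1, ID2, ID3, SMAD6, SMAD7, SMAD9, BAMBI and NOG) rose with BMP-on in both WT and KO. Of all tested genes 1.91% were called higher with BMP-on in WT and 11.1% in KO. At BMP-off 6 of the 8 lay higher in every KO than in every WT library, with a median log2 fold change over the list of 0.32, and SMAD9 passed (0.97, edgeR Benjamini-Hochberg adjusted p = 5.65e-05). The epithelial markers EPCAM, CDH1, KRT8 and KRT18 were detected in all 12 libraries, whereas KRT19, NKX2-1 and SFTPB had at most 2 counts in any library and NAPSA had 6 to 27. Of 6 markers of other cells, PTPRC was at 0, CD3E, COL1A2, PECAM1 and VWF had at most 19 counts, and COL1A1 had 275 to 1071. With BMP-on COL1A1 went from 11.0 to 19.6 CPM in the BMP-off libraries to 27.7 to 41.0 CPM, a log2 fold change of 0.73 in WT, which did not pass (edgeR Benjamini-Hochberg adjusted p = 0.0728), and of 1.39 in KO, which did (adjusted p = 0.000602). EPCAM fell by 0.56 in WT and 0.61 in KO on the log2 scale, and KRT8 rose by 0.61 in KO. The part of these markers in the members' BMP responses was not tested. The relation of a library's values to transcript GC content varied within groups, from a Spearman coefficient across genes of -0.603 in KO BMP-off replicate 2 to 0.586 in KO BMP-off replicate 3. These 2 libraries stood farthest apart, and calls that rest on either are given with and without it.

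The members spanned a wide range of levels, and most were readily measured. Per length, BAX, the pore-forming effector of mitochondrial apoptosis, had the highest mean over the 12 libraries at 46.3 RPKM, followed by TRIAP1, an inhibitor of apoptosis, at 39.5 RPKM. The death receptor gene TNFRSF10B lay at 37.4 RPKM, the nuclease gene AEN at 36.1 RPKM and the cyclin G1 gene CCNG1 at 29.03 RPKM. The ranges of these first 4 genes overlapped one another, so their order is not resolved. MDM2 lay at 8.55 RPKM and ZMAT3 at 4.90 RPKM. At the low end were FAS at 1.90 RPKM, FDXR at 1.79, BBC3 at 1.66, BTG2 at 1.496 and TP53INP1 at 1.14, all with overlapping ranges. GDF15, which encodes a secreted stress cytokine, had 3 to 12 counts per library, at a mean of 0.248 RPKM. SPATA18, a gene of mitochondrial quality control, had 1 count in 1 library and none in the other 11. A count of 0 allowed up to 3 counts, or 0.102 to 0.157 CPM depending on the library, which covers counting error only. The filter on low counts left 28 of the 29 members among the 17188 genes tested, with SPATA18 left out.

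**Figure D1:**
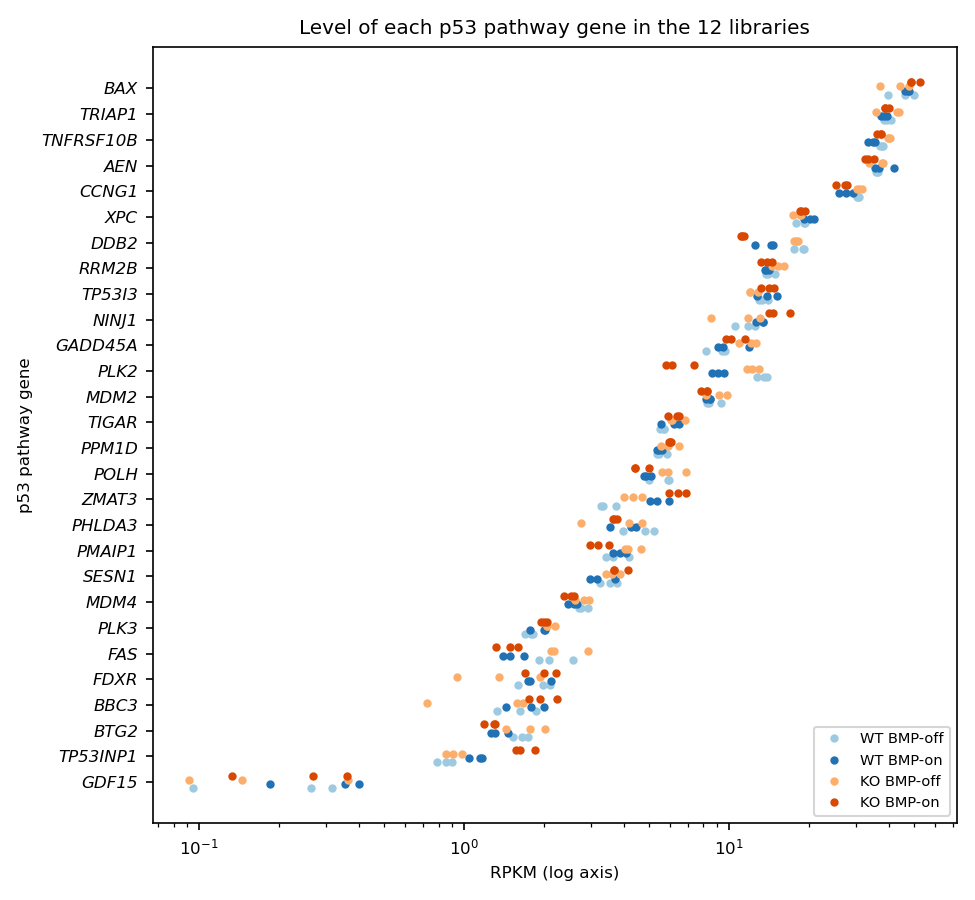
Level of each p53 pathway gene in RPKM on a log axis, with 1 point per library colored by group; SPATA18 is omitted because 11 of its 12 values are 0. The genes run from GDF15 at a mean of 0.248 RPKM to BAX at 46.3 RPKM, and for most of them the 4 groups lie on top of one another.

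Promoter sequence was read for the members from RefSeq (GRCh38.p14), in windows of 250 bases before and 50 after each annotated start, to show which targets carry a p53 motif close to a start site. A window was at hand for 24 of the 29 members, 35 windows in all, and not for TNFRSF10B, PHLDA3, GADD45A, TP53INP1 and RRM2B. An exact match to the p53 half-site consensus on either strand was found in 6 of the 35 member windows (17.1%) and in 6.63% of all 35116 windows. The members with a match were PLK2, FAS, DDB2, SESN1, AEN and FDXR, and they are shown 5′ to 3′ on the gene's strand with the half-site in capitals.
PLK2: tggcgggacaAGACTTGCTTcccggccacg
FAS: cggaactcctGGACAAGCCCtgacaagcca
DDB2: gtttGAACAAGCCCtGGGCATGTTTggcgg
SESN1: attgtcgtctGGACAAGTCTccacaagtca
AEN: agtcggagccGGGCTTGCCCgggcatgtgg
FDXR: gggcaggagcGGGCTTGCCCt
The PLK2 stretch (chr5:58460199-58460228, minus strand) and the AEN stretch (chr15:88621296-88621325, plus strand) lay upstream of every annotated transcript of their genes in GENCODE v44. The FAS stretch (chr10:88991299-88991328, plus strand) lay before an internal start and was intronic in 38 and exonic in 8 of the 46 FAS transcripts that cover it. The SESN1 stretch (chr6:109009018-109009047, minus strand) was intronic in the 2 SESN1 transcripts that cover it. The DDB2 stretch (chr11:47214975-47215004, plus strand) began after the start base and held 2 half-sites separated by 1 base, and it was exonic in 2 and intronic in 2 of the 4 transcripts that cover it. The FDXR stretch (chr17:74872995-74873015, minus strand) was exonic in the 4 FDXR transcripts that cover it. The motif GGCGCC, to which SMAD1 and SMAD5 can bind, was present in 7 of the 35 member windows (20%) against 19.2% of all windows, in PLK3, ZMAT3, SESN1, TRIAP1, PMAIP1 and BAX. CATG, a form that the core of a p53 half-site can take, was in 34.3% of member windows and 54.9% of all windows. Of the half-sites shown only the second of DDB2 holds CATG, and the others hold CAAG or CTTG. GTCTAGAC, a SMAD4 element, was in none of the member windows and 0.202% of all windows. All motifs were searched as exact matches on both strands, CATG also lies inside some half-sites, and sequence outside these windows was not searched.

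At BMP-off, with LDN present, no p53 pathway gene was called between KO and WT by edgeR. None of the 28 tested members passed an adjusted p of 0.05 in either direction, where 0.00582% of all tested genes were called higher and 0.0349% lower (0.0116% when a log2 fold change of 1 in size was also required). The smallest edgeR Benjamini-Hochberg adjusted p among members was 0.263, 3 members had an unadjusted p under 0.05 (10.7%, against 10.2% of all genes), and DESeq2 and limma-voom also called 0. The median log2 fold change of the 28 members was 0.03, beside -0.01 over all genes.

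None of the 4 feedback genes passed in this comparison, and their log2 fold changes were small. MDM2 (chr12:68808177-68845544 in GRCh38, plus strand) read 112, 101 and 101 CPM in WT BMP-off and 110, 115 and 99.7 CPM in KO BMP-off. The groups overlapped, and the log2 fold change was 0.05 with a 95% interval of -0.07 to 0.17. MDM4, a partner of MDM2, had a log2 fold change of -0.01 and PPM1D, a phosphatase that damps the response, 0.09.

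None of the 8 apoptosis members passed, and their log2 fold changes had both signs. BBC3, which encodes PUMA, read 2.62, 3.26 and 3.73 CPM in WT BMP-off against 3.14, 1.41 and 3.37 CPM in KO BMP-off, with an interval of the log2 fold change of -0.81 to 0.28. BAX read 53.1, 62.9 and 67.2 CPM in WT BMP-off against 59.5, 48.5 and 64.8 CPM in KO BMP-off (interval -0.30 to 0.13). PHLDA3, an inhibitor of AKT, read 10.1, 12.5 and 13.4 CPM in WT BMP-off against 10.7, 6.87 and 12.1 CPM in KO BMP-off (interval -0.64 to 0.09). All 3 genes were lowest in KO BMP-off replicate 2, the library with the lowest GC coefficient, and their longest transcripts have a GC content of 58.9% to 69.7%. The part of GC content in these values was not tested.

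In 5 members the KO BMP-off libraries lay entirely above the WT BMP-off libraries, namely ZMAT3, GADD45A, PLK3, TIGAR and TNFRSF10B, and in none did they lie entirely below. Over all 17188 tested genes 5.76% lay entirely above and 5.96% entirely below, and 0.00582% were called higher and 0.0349% lower. None of the 5 passed. ZMAT3, an RNA-binding protein that acts in splicing and RNA turnover, read 33.6, 30.7 and 29.9 CPM in WT BMP-off and 39.2, 41.3 and 36.9 CPM in KO BMP-off, a log2 fold change of 0.32 (SE 0.0754). GADD45A, a stress sensor linked to growth arrest and repair, read 13.7, 13.6 and 11.7 CPM in WT BMP-off and 17.2, 17.4 and 15.7 CPM in KO BMP-off, a log2 fold change of 0.37 (SE 0.105) with an edgeR Benjamini-Hochberg adjusted p of 0.342. The 95% interval lay within 0.5 of 0 for 23 of the 28 members, the exceptions being BBC3, GADD45A, FDXR, PHLDA3 and GDF15, and within 1 of 0 for all but GDF15. Without a filter on low counts ZMAT3 and GADD45A were called, and with a GC correction ZMAT3 was.

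**Figure D2:**
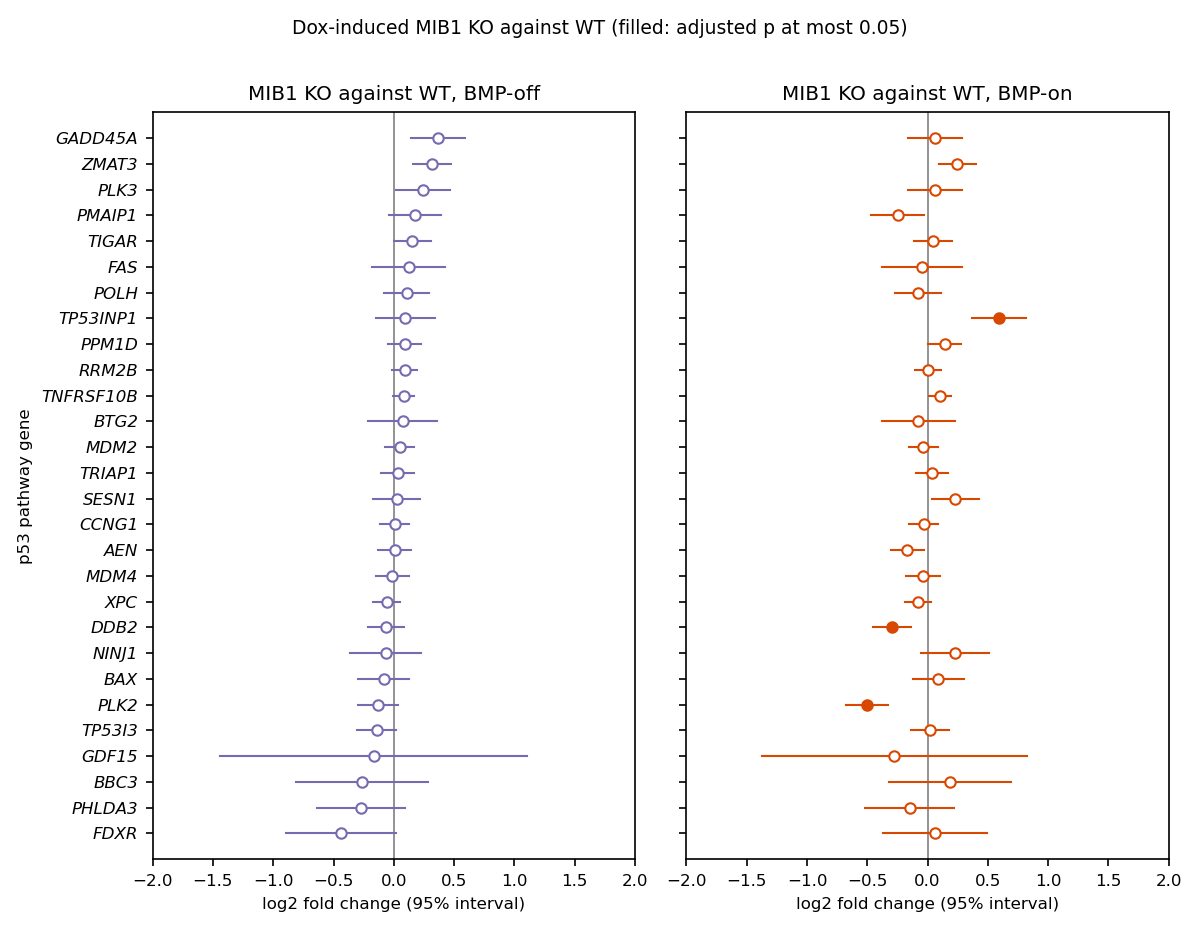
log2 fold change of each of the 28 tested p53 pathway genes between KO and WT, at BMP-off on the left and BMP-on on the right, with 95% intervals; filled points passed an adjusted p of 0.05. No point is filled at BMP-off, where the largest values are GADD45A (0.37) and ZMAT3 (0.32), and 3 are filled at BMP-on, TP53INP1, DDB2 and PLK2.

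With BMP signaling restored, 3 members differed between KO and WT. TP53INP1, a gene of autophagy and stress-induced death, was higher in KO (1 of 28 members or 3.57%, against 1.32% of all genes), and PLK2 and DDB2 were lower (2 of 28 or 7.14%, against 2.34% of all genes). None of the 3 also had a log2 fold change of 1 in size, which 0.14% of all genes did. The median over the 28 members was 0.01, beside 0.00 over all genes. By edgeR 32.1% of members had an unadjusted p under 0.05, against 13.8% of all genes. These contrasts share the BMP-on libraries with the BMP responses described next.

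TP53INP1 lies on chromosome 8 and read 5.70, 6.43 and 6.32 CPM in WT BMP-on and 10.2, 8.62 and 8.97 CPM in KO BMP-on. The groups did not overlap, and the log2 fold change was 0.59 (SE 0.104, edgeR Benjamini-Hochberg adjusted p = 0.00313). PLK2, a polo-like kinase with roles in stress checkpoints and centriole duplication, read 27.2, 26.1 and 24.7 CPM in WT BMP-on and 17.6, 21.2 and 16.6 CPM in KO BMP-on, a log2 fold change of -0.50 (SE 0.0831, edgeR Benjamini-Hochberg adjusted p = 0.00213). DDB2, which recognizes ultraviolet lesions for nucleotide excision repair, read 22.5, 26.1 and 26.5 CPM in WT BMP-on and 20.8, 20.3 and 20.1 CPM in KO BMP-on, a log2 fold change of -0.30 (SE 0.0730, edgeR Benjamini-Hochberg adjusted p = 0.0315). The DDB2 call was lost without any 1 of the 3 KO BMP-on libraries or without WT BMP-on replicate 2 or 3, at log2 fold changes of -0.31 to -0.26 and adjusted p of 0.0732 to 0.155 by edgeR. ZMAT3 was again higher in every KO library (0.25, SE 0.0724) but did not pass, with an edgeR Benjamini-Hochberg adjusted p of 0.0791, and passed without KO BMP-off replicate 2 (0.0368). Over the 25 alternative settings ZMAT3 passed at BMP-on in 6 and DDB2 in 17.

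The canonical feedback and apoptosis targets did not pass the test between KO and WT at BMP-on. MDM2 read 103, 104 and 99.9 CPM in WT BMP-on and 96.9, 101 and 101 CPM in KO BMP-on, with an interval of the log2 fold change of -0.16 to 0.08. BBC3 read 2.91, 4.04 and 3.63 CPM in WT BMP-on and 4.56, 3.55 and 3.92 CPM in KO BMP-on (interval -0.32 to 0.69). BAX read 62.9, 64.8 and 65.5 CPM in WT BMP-on and 72.6, 66.2 and 66.5 CPM in KO BMP-on (interval -0.12 to 0.30). KO libraries of BAX lay above the WT libraries, while those of MDM2 and BBC3 overlapped them. PPM1D (log2 fold change 0.14) and TNFRSF10B (0.10) were also higher in every KO library, and PMAIP1 (-0.25) and AEN (-0.17) lower. The remaining feedback and apoptosis members overlapped. How many of all genes stood apart in this way at BMP-on was not counted. PHLDA3 read 9.24, 11.1 and 11.6 CPM in WT BMP-on and 9.62, 9.82 and 9.52 CPM in KO BMP-on (interval -0.52 to 0.22).

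Restoring BMP signaling in WT cells changed 4 members, in both directions. ZMAT3 and TP53INP1 rose (2 of 28 or 7.14%, against 1.91% of all genes) and PLK2 and DDB2 fell (2 of 28 or 7.14%, against 2.01% of all genes). None passed both thresholds, which 0.425% of all genes did, and the median of the 28 members was 0.00, as it was over all genes. An unadjusted edgeR p under 0.05 was reached by 28.6% of members, against 15.3% of all genes. BMP response here means BMP-on minus BMP-off within a genotype, and the WT and KO responses share no libraries. In bulk RNA, fewer cells with a transcript and less transcript per cell cannot be told apart.

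In KO cells 11 members changed. ZMAT3, TP53INP1, NINJ1 and TP53I3 rose (4 of 28 or 14.3%, against 11.1% of all genes), while PLK2, DDB2, FAS, POLH, PMAIP1, BTG2 and CCNG1 fell (7 of 28 or 25%, against 10.9% of all genes). None passed both thresholds, which 1.66% of all genes did, and the median of the 28 members was -0.04, beside 0.01 over all genes. An unadjusted edgeR p under 0.05 was reached by 50.0% of members, against 35.5% of all genes. Of the 11, 10 had the same sign in WT, where 93.9% of all genes called in KO did, and all 4 members called in WT were also called in KO, as were 90.8% of all genes called in WT.

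**Figure D3:**
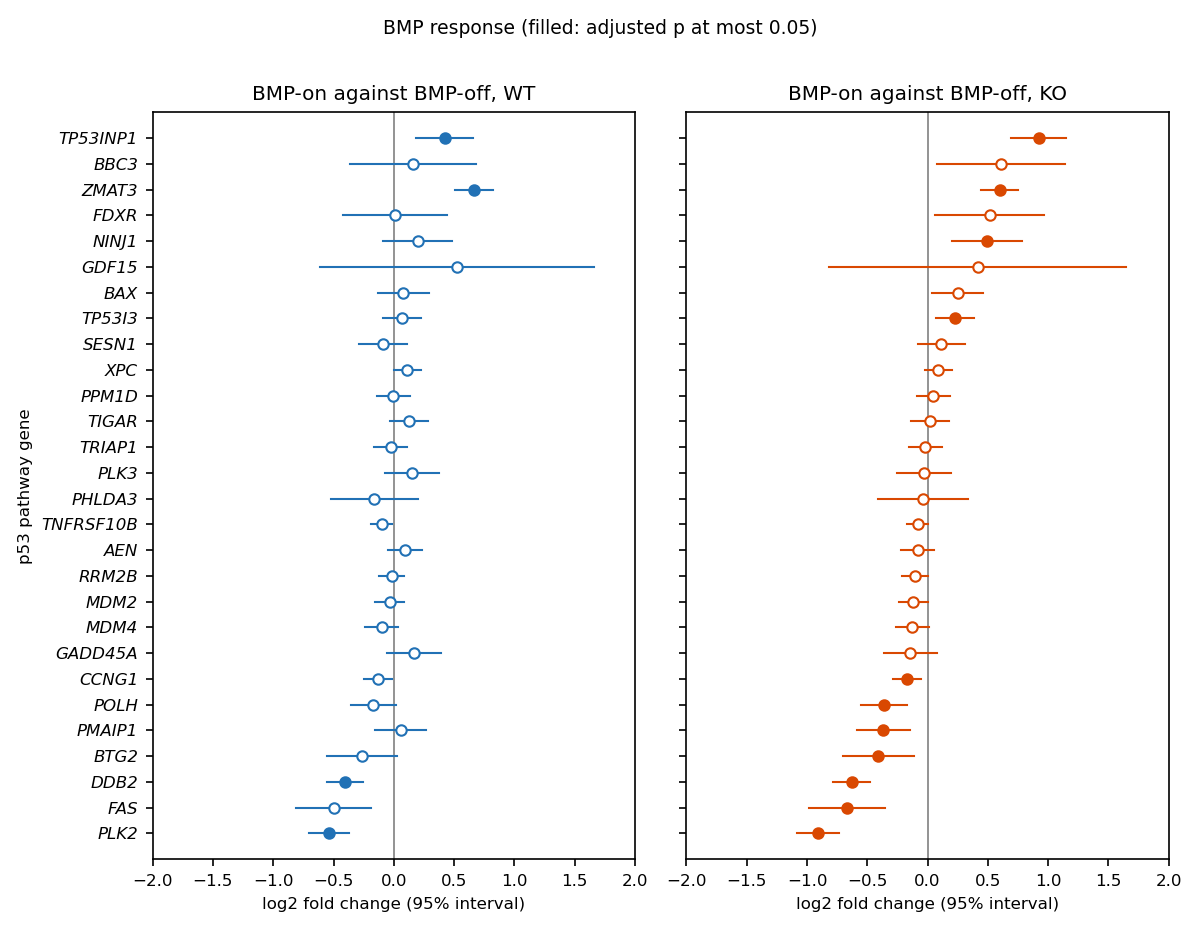
log2 fold change of each of the 28 tested p53 pathway genes between BMP-on and BMP-off, in WT on the left and KO on the right, with 95% intervals; filled points passed an adjusted p of 0.05. TP53INP1 and ZMAT3 are filled above 0 and PLK2 and DDB2 below 0 in both panels, and 7 further genes are filled in KO alone.

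Genes of growth arrest and RNA turnover moved in opposite directions with BMP. ZMAT3 (chr3:178960121-179072215, minus strand) went from the BMP-off values above to 54.3, 49.1 and 46.3 CPM in WT BMP-on and 54.9, 63.5 and 59.5 CPM in KO BMP-on. All BMP-on libraries were above all BMP-off libraries of their genotype. The log2 fold change was 0.67 in WT (edgeR Benjamini-Hochberg adjusted p = 5.12e-05, SE 0.0746) and 0.60 in KO (adjusted p = 2.39e-05, SE 0.0734). PLK2 (chr5:58453982-58460139, minus strand), whose upstream half-site is shown above, went the other way. It read 38.8, 38.5 and 36.1 CPM in WT BMP-off and 36.6, 33.6 and 33.3 CPM in KO BMP-off, against 24.7 to 27.2 CPM in WT BMP-on and 16.6 to 21.2 CPM in KO BMP-on. Its log2 fold change was -0.54 in WT (edgeR Benjamini-Hochberg adjusted p = 0.000651, SE 0.0792) and -0.91 in KO (SE 0.0822, adjusted p = 9.77e-07). BTG2, an antiproliferative cofactor of mRNA deadenylation, read 3.92, 4.30 and 4.50 CPM in WT BMP-off and 3.42, 3.32 and 3.84 CPM in WT BMP-on. In KO it read 3.70, 4.46 and 5.26 CPM at BMP-off and 3.45, 3.13 and 3.42 CPM at BMP-on, a log2 fold change of -0.41 (SE 0.139, edgeR Benjamini-Hochberg adjusted p = 0.0446). GADD45A and PLK3, the other members of the group, did not pass in either genotype, with log2 fold changes of 0.16 and 0.15 in WT and -0.14 and -0.03 in KO.

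Among the 4 genes of DNA repair and nucleotide supply, DDB2 fell in both genotypes and POLH in KO, beside 2.01% of all genes called lower in WT and 10.9% in KO, and XPC and RRM2B did not pass. DDB2 (chr11:47214465-47239217, plus strand), with a pair of half-sites near one of its starts, read 31.0, 34.4 and 34.0 CPM in WT BMP-off and 31.7, 30.5 and 32.6 CPM in KO BMP-off. Every BMP-on library, at 20.1 to 26.5 CPM, was below every BMP-off library. The log2 fold change was -0.40 in WT (edgeR Benjamini-Hochberg adjusted p = 0.00290, SE 0.0708) and -0.63 in KO (SE 0.0724, adjusted p = 1.19e-05). POLH, the translesion polymerase eta, read 19.7, 20.2 and 16.8 CPM in WT BMP-off and 16.6, 16.4 and 17.5 CPM in WT BMP-on. The KO values were 19.7, 22.5 and 19.0 CPM at BMP-off and 17.2, 15.2 and 15.1 CPM at BMP-on, a log2 fold change of -0.36 (SE 0.0894, edgeR Benjamini-Hochberg adjusted p = 0.00909). XPC, the damage sensor of nucleotide excision repair, had log2 fold changes of 0.11 in WT and 0.09 in KO, and RRM2B, a p53-inducible subunit of ribonucleotide reductase, -0.02 and -0.10.

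Of the 8 apoptosis members, 2 fell in KO, where 10.9% of all genes were called lower and 11.1% higher, and none rose in either genotype. FAS (chr10:88953813-89029605, plus strand), the receptor of FAS ligand, read 5.10, 6.39 and 4.73 CPM in WT BMP-off and 3.50, 3.73 and 4.20 CPM in WT BMP-on. In KO it read 5.34, 7.03 and 5.30 CPM at BMP-off and 4.02, 3.29 and 3.73 CPM at BMP-on. The groups did not overlap in either genotype, and the log2 fold change was -0.50 in WT (SE 0.148, edgeR Benjamini-Hochberg adjusted p = 0.0754, and 0.0244 without KO BMP-off replicate 2) and -0.67 in KO (SE 0.149, adjusted p = 0.00453). PMAIP1, which encodes the BH3-only protein NOXA, read 8.34, 7.35 and 6.87 CPM in WT BMP-off and 8.27, 7.42 and 7.87 CPM in WT BMP-on. Its KO values were 8.27, 9.08 and 8.20 CPM at BMP-off and 6.13, 6.53 and 7.15 CPM at BMP-on, a log2 fold change of -0.37 (SE 0.103, edgeR Benjamini-Hochberg adjusted p = 0.0187). BBC3 and BAX, both activators of mitochondrial apoptosis, were higher in every KO BMP-on than every KO BMP-off library but did not pass, with log2 fold changes of 0.61 (SE 0.246) and 0.25 (SE 0.0983). With a GC correction these were 0.07 and 0.02, and both genes were called without a filter on low counts. PHLDA3 had log2 fold changes of -0.16 in WT and -0.04 in KO. TNFRSF10B had -0.10 and -0.08, AEN 0.09 and -0.08, and TRIAP1 -0.03 and -0.02.

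Of the 4 feedback genes, 1 fell with BMP, in KO, beside 10.9% of all genes. MDM2 had a log2 fold change of -0.03 in WT (interval -0.15 to 0.09) and -0.12 in KO (interval -0.24 to 0.00), so that neither interval reached 0.1 above 0. MDM4 had -0.10 in WT and -0.13 in KO, and PPM1D 0.00 and 0.05. CCNG1, whose product recruits a phosphatase to MDM2, read 71.5, 73.4 and 71.8 CPM in WT BMP-off and 61.7, 65.8 and 70.4 CPM in WT BMP-on. In KO it read 74.7, 70.7 and 72.5 CPM at BMP-off and 67.0, 60.7 and 65.6 CPM at BMP-on, a log2 fold change of -0.17 (SE 0.0562, edgeR Benjamini-Hochberg adjusted p = 0.0382). All 6 BMP-on values of CCNG1 lay below all 6 BMP-off values.

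Genes of metabolism, mitochondria and autophagy included the largest rise. TP53INP1 read 4.60, 4.91 and 4.27 CPM in WT BMP-off and 4.61, 4.78 and 5.38 CPM in KO BMP-off, below all BMP-on values given above. The log2 fold change was 0.42 in WT (edgeR Benjamini-Hochberg adjusted p = 0.0464, SE 0.113) and 0.92 in KO (SE 0.108, adjusted p = 1.43e-05). TP53I3, which encodes a quinone oxidoreductase, read 27.1, 26.0 and 25.1 CPM in WT BMP-off and 29.7, 25.0 and 27.4 CPM in WT BMP-on. KO libraries read 23.2, 22.5 and 25.2 CPM at BMP-off and 26.1, 29.2 and 27.8 CPM at BMP-on, a log2 fold change of 0.23 (SE 0.0751, edgeR Benjamini-Hochberg adjusted p = 0.0394). That sign turned with a GC correction (-0.02). FDXR, the mitochondrial ferredoxin reductase, SESN1, a stress-induced inhibitor of mTORC1, and TIGAR, a regulator of glycolysis, were not called, at 0.01, -0.09 and 0.13 in WT and 0.52, 0.11 and 0.02 in KO. The KO value of FDXR was 0.20 with a GC correction, and FDXR was called without a filter on low counts. Among the secreted and surface members, NINJ1, which ruptures the plasma membrane of dying cells, read 12.7, 15.5 and 14.4 CPM in WT BMP-off and 16.5, 16.6 and 15.7 CPM in WT BMP-on. In KO it read 14.3, 10.1 and 16.1 CPM at BMP-off and 21.2, 17.6 and 18.3 CPM at BMP-on, a log2 fold change of 0.49 (SE 0.134, edgeR Benjamini-Hochberg adjusted p = 0.0177). GDF15 stayed near the detection limit, with intervals of -0.61 to 1.66 in WT and -0.82 to 1.65 in KO.

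**Figure D4:**
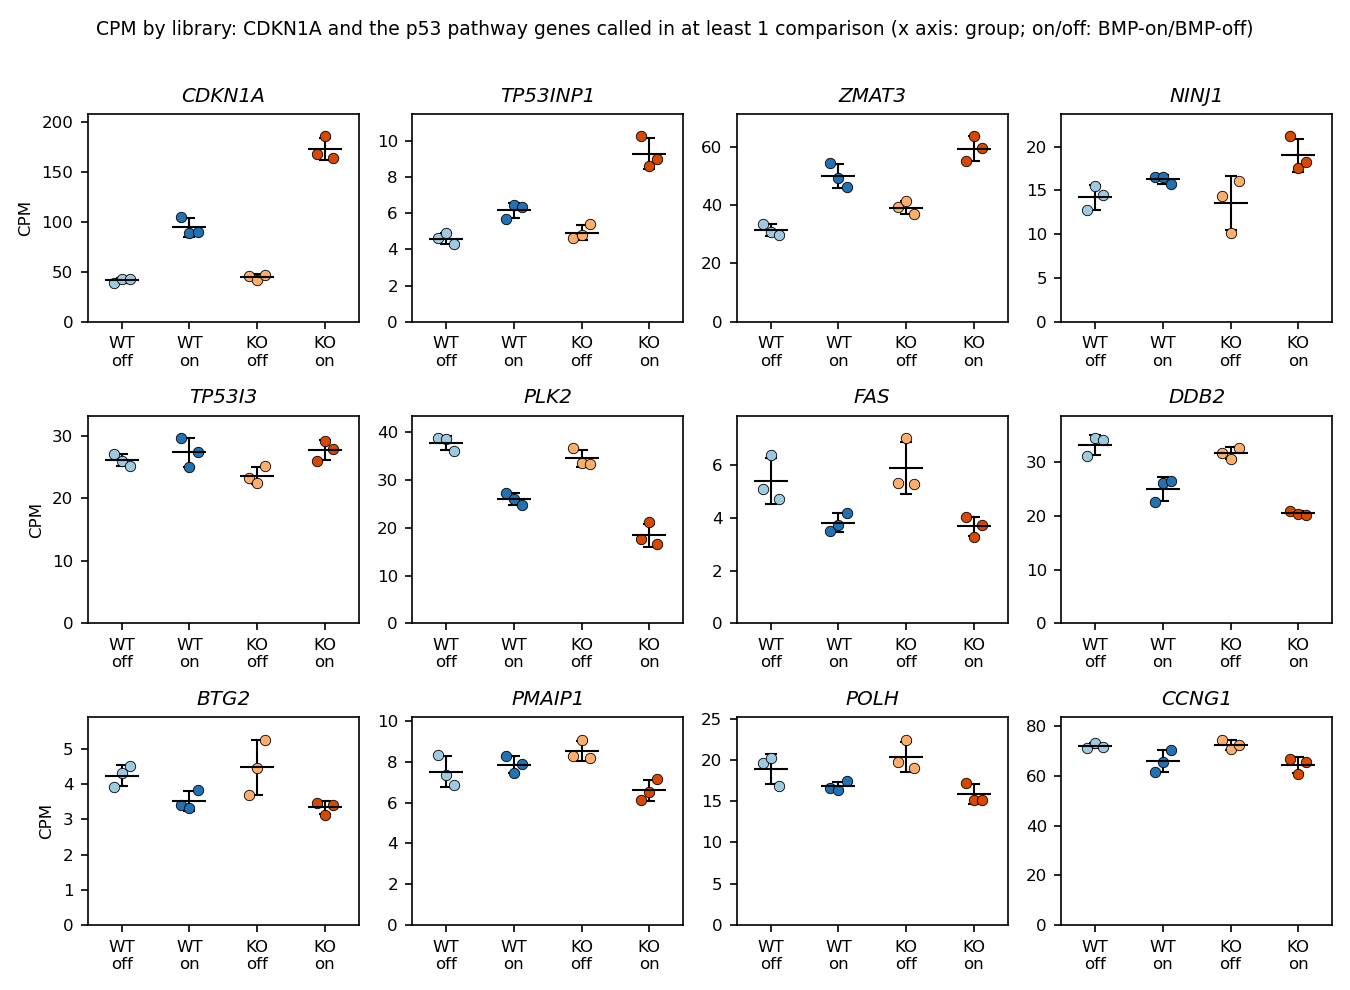
CPM in each library for CDKN1A and the 11 p53 pathway genes called in at least 1 comparison, by group, with horizontal bars for the mean and whiskers for the SD of 3 libraries; each axis starts at 0. ZMAT3 and TP53INP1 step up and PLK2 and DDB2 step down with BMP-on in both genotypes, and CDKN1A goes from a mean of 45.2 to 173 CPM in KO.

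Several of the weaker calls were lost when a single library was left out or another setting was used. Over the 25 alternative settings TP53INP1 passed in WT in 9, with a log2 fold change down to 0.20 on log2(RPKM + 1). In KO TP53I3 passed in 10, BTG2 in 15, CCNG1 in 17, and PMAIP1 and NINJ1 in 22 each. The CCNG1 value was -0.08 with a GC correction. In WT, TP53INP1 was not called without any 1 of the 6 WT libraries, KO BMP-off replicate 1 or KO BMP-on replicate 2 or 3 (0.37 to 0.47, edgeR adjusted p 0.0539 to 0.173), while ZMAT3, PLK2 and DDB2 held under all 25 alternative settings. In KO, ZMAT3, TP53INP1, PLK2, DDB2, FAS and POLH held under all 25. TP53I3 was lost without KO BMP-off replicate 1 or 2, KO BMP-on replicate 2 or 3, WT BMP-off replicate 2 or 3, or WT BMP-on replicate 3 (0.19 to 0.22, adjusted p 0.0517 to 0.137 by edgeR). BTG2 was lost without KO BMP-off replicate 2 or 3, any 1 KO BMP-on library or WT BMP-off replicate 2 (-0.44 to -0.29, edgeR adjusted p 0.0542 to 0.135). CCNG1 was lost without KO BMP-off replicate 1 or KO BMP-on replicate 2 or 3 (-0.19 to -0.13), PMAIP1 without KO BMP-off replicate 2 or KO BMP-on replicate 1 or 2 (-0.36 to -0.32), and NINJ1 without KO BMP-on replicate 1 (0.40). Without KO BMP-off replicate 3, BBC3 (0.79), BAX (0.33), FDXR (0.79) and MDM2 (-0.19) were called in KO, and BAX was also called without WT BMP-off replicate 1 (0.24).

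Whether MIB1 knockout altered the BMP response of a member was tested as the difference of the KO and WT responses. No member passed (0 of 28, where 0.0407% of all genes were called higher, 0.0524% lower and 0% past both thresholds). By edgeR 4 members had an unadjusted p under 0.05 (14.3%, against 10.6% of all genes), and DESeq2 and limma-voom also called 0. PLK2 differed by -0.37 (95% interval -0.61 to -0.13), TP53INP1 by 0.50 (0.17 to 0.83), PMAIP1 by -0.42 (-0.73 to -0.11) and DDB2 by -0.23 (-0.44 to -0.01), with a smallest edgeR Benjamini-Hochberg adjusted p of 0.250. The members called in KO alone are therefore not shown to respond differently from WT.

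CDKN1A moved more than any member in both BMP responses. CDKN1A read 38.4, 43.3 and 43.2 CPM in WT BMP-off, 105, 88.6 and 90.1 in WT BMP-on, 46.4, 42.3 and 46.9 in KO BMP-off and 169, 186 and 164 in KO BMP-on. The BMP-off groups overlapped, and each BMP-on group stood apart from all others. Its BMP response was a log2 fold change of 1.18 in WT (edgeR Benjamini-Hochberg adjusted p = 7.17e-08, SE 0.0744) and 1.94 in KO (SE 0.0743, adjusted p = 4.50e-11). Between KO and WT the log2 fold change was 0.87 at BMP-on (edgeR Benjamini-Hochberg adjusted p = 4.31e-06, SE 0.0711) and 0.12 at BMP-off (adjusted p = 0.591, SE 0.0759). The KO response exceeded the WT response by 0.75 (edgeR Benjamini-Hochberg adjusted p = 0.00843, SE 0.104), a call that held under 20 of 24 alternative settings.

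Other lists of the pathway were counted in the same way. Of 34 further p53 targets 29 were tested, with CDKN1A among them and counted in the shares below. In the WT response 3 of them rose (10.3%, against 1.91% of all genes) and none fell (against 2.01%), with CDKN1A first, followed by SERTAD1, a cell-cycle and transcription cofactor, at 0.50 and PERP, a desmosomal protein, at 0.32. In the KO response 6 rose (20.7%, against 11.1% of all genes) and 5 fell (17.2%, against 10.9%), led by CDKN1A, PIDD1 (0.99), an activator of caspase-2, and SERTAD1 (0.95) upward and by TGFA (-0.98), TLR3 (-0.83) and APAF1 (-0.36), the scaffold of the apoptosome, downward. CDKN1A alone passed between KO and WT at BMP-on (3.45%, against 1.32% of all genes called higher), and none passed at BMP-off. The medians of this list were 0.05, 0.02, 0.02 and 0.00 in the WT response, the KO response, KO against WT at BMP-on and at BMP-off.

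Upstream regulators gave 1 call in each of 3 comparisons. Of 16 genes 15 were tested, and CHEK2 fell in the WT response (-0.23) and CHEK1, a checkpoint kinase of replication stress, in the KO response (-0.42) and in KO against WT at BMP-on (-0.25), with none called at BMP-off. Each single call was 6.67% of the 15, against 2.01%, 10.9% and 2.34% of all genes called lower. A list of 15 genes was taken that p53 can lower through p21 and the DREAM complex, which represses cell-cycle genes. Of these, 8 fell in the WT response, 14 in the KO response, 13 in KO against WT at BMP-on and none at BMP-off, and none rose. These were 53.3%, 93.3% and 86.7% of the list, against 2.01%, 10.9% and 2.34% of all genes called lower. At BMP-off 13 of the 15 had a negative log2 fold change. There 7 of the 15 lay lower in every KO than in every WT library, against 5.96% of all genes. By edgeR 6 of the 15 had an unadjusted p under 0.05 at BMP-off, against 10.2% of all genes. The paper reports cell-cycle arrest with BMP4 or MIB1 KO, and the part of p53 in these falls was not tested. The strongest falls in the KO response were MKI67 (-0.61), PLK4 (-0.59) and CENPF (-0.53), and the medians were -0.17, -0.41, -0.30 and -0.07 in those 4 comparisons. Genes of the integrated stress response, several of which respond to ATF4 without p53, had 11 of 12 tested. NUPR1, a chromatin-associated stress protein, rose in the WT response (1.20), in the KO response (1.15) and in KO against WT at BMP-on (0.63). SESN2 (0.48) and CEBPB (0.23) rose and ATF3 (-0.29) and PSAT1 (-0.21) fell in the KO response, with none called at BMP-off. The calls upward were 9.09%, 27.3% and 9.09% of the 11 in those 3 comparisons, against 1.91%, 11.1% and 1.32% of all genes, and the calls downward in KO were 18.2%, against 10.9%.

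**Figure D5:**
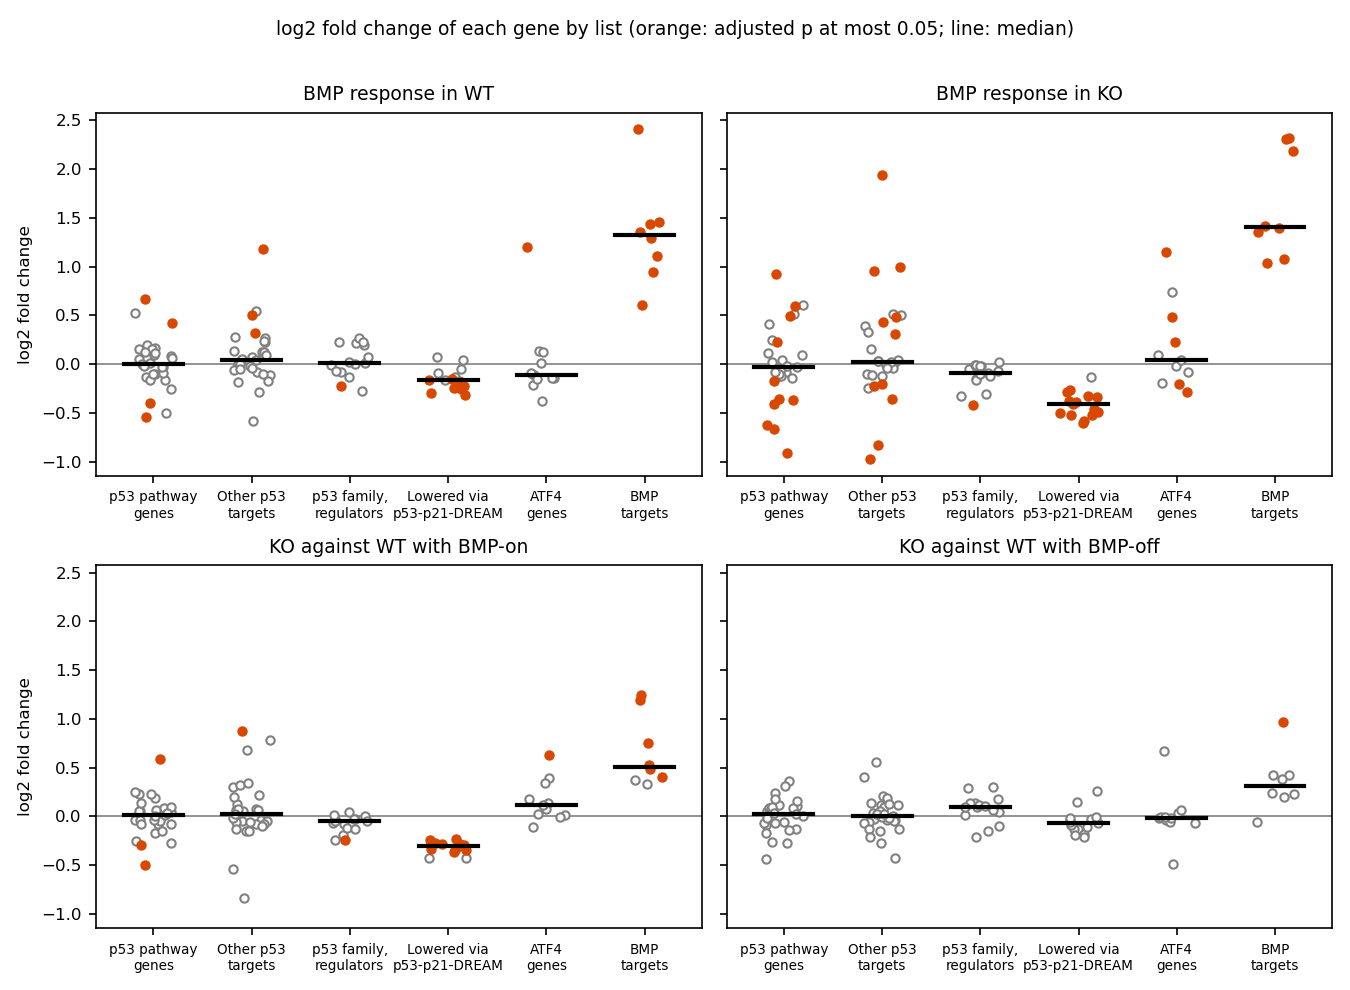
log2 fold change of each tested gene by list in 4 comparisons, with orange points for genes that passed an adjusted p of 0.05 and a black line at the list's median. The p53 pathway genes scatter around 0 in all 4 panels (medians -0.04 to 0.03). Genes that p53 can lower through p21 and DREAM lie below 0 in the KO response (median -0.41), and BMP targets lie above 0 in both BMP responses.

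For 5 members, exons overlap a gene whose own counts reach at least 5% of the member's, and the counting is not stated to use strand, so reads of the neighbor can enter their values. These are MDM2 with the antisense gene CPM, FAS with STAMBPL1 on the same strand and ACTA2 antisense, TP53INP1 with NDUFAF6, TNFRSF10B with RHOBTB2, and POLH with the antisense GTPBP2. The gene CPM, which encodes carboxypeptidase M, itself fell in the WT response (-0.44) and in the KO response (-0.56), and STAMBPL1, NDUFAF6 and GTPBP2 were not called, at -0.29, -0.20 and 0.22 in the KO response. RHOBTB2 read 44.2 to 52.5 CPM in the BMP-off libraries and 51.5 to 61.1 CPM in the BMP-on libraries. ACTA2 was too low to test.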

How the data were processed

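RNA-seq was measured in 12 libraries, 3 in each of 4 groups taken from the labels. Per the methods, reads were cleared of ribosomal sequence, mapped with GSNAP (genome GRCh38) and assigned to exons of each gene with HTSeqGenie. The authors deposited the resulting raw counts and also RPKM values, which the authors scaled by gene length and library. Strand use in counting and the library kit are not given in the sources used here. Ensembl IDs were paired with symbols from GENCODE v44. The deposited counts were tested with edgeR 4.0.16 in R 4.3.3 (TMM, filterByExpr, robust quasi-likelihood fit over all 12 libraries, no covariates), with Benjamini-Hochberg adjustment over the 17188 genes tested in each comparison and a call at an adjusted p of 0.05. Standard errors were taken from the F statistic. DESeq2 1.42.0, limma 3.58.1 with voom and quantile normalization as the study used, limma on log2 RPKM, other scalings and filters, GC correction, a replicate block and leaving out each library were alternatives. The scripts were tested on simulated counts. Replicate numbers did not pair samples. RPKM served for comparing levels between genes. The members, companion lists and tests were chosen with earlier results of these data known. Named were all members called in any comparison, MDM2, BBC3, BAX, PMAIP1, FAS, ZMAT3 and PHLDA3 whatever their values, CDKN1A and MIB1, and up to 3 called genes per direction, list and comparison. A further gene of this rule is not reported here. Remaining members are given by level or fold change. CPM, STAMBPL1, NDUFAF6, RHOBTB2 and GTPBP2 and the library-level detail for GADD45A were added after their values were seen. Of the companion genes TP63, EDA2R, TNFRSF10C, ACER2, TP53AIP1, PRDM1 and ASNS were too low to test.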

Additional observations from a re-analysis of the deposited data

How the results depend on the processing

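The number of members called was recomputed under 25 alternative settings. It was 3 to 5 in the WT response (4 as reported), and the lowest and highest when leaving out 1 library were also 3 and 5. In the KO response (11 as reported) it was 7 to 14 without 1 library, with the 7 coming without KO BMP-on replicate 2, and 7 when the fit held only the groups compared. For KO against WT at BMP-on (3 as reported) it was 2 to 4 without 1 library and 1 on log2(RPKM + 1) without a filter on low values. At BMP-off (0 as reported) it was 0 without any 1 library, 2 without a filter on low counts and 1 with GC correction, and the interaction was 0 under each of 24 settings. The study's second threshold, a log2 fold change of 1 in size, left 0 members in all 5 comparisons. The TP53I3 response in KO turned to -0.02 (-0.023) with GC correction and to -0.022 with GC correction and a replicate block. With a replicate block 3, 9, 2, 0 and 0 members were called in the WT response, the KO response, KO against WT at BMP-on, at BMP-off and the interaction. Libraries with the same replicate number did not deviate together: 2 of 18 pairs had a correlation over 0.1, so the block adds only a shared number. The cause of these shifts was not tested. Depth limits GDF15 (3 to 12 counts) and SPATA18, for which a change was not detectable.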
